A study of Mus musculus with 12 samples.

Results

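The genes described here are Foxp3, the transcription factor that sets up the regulatory T (Treg) cell program, together with the Ikaros family of zinc finger factors (Ikzf1, Ikzf2, Ikzf3, Ikzf4 and Ikzf5) and the Runx family (Runx1, Runx2 and Runx3) with its shared partner subunit Cbfb. They were taken by symbol from the table of read counts, which made 10 of the 25189 genes in the table. All 10 had enough reads to be among the 13196 genes tested.

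RNA of splenic Treg cells from female mice aged 4 weeks was sequenced in 12 libraries, 4 for each of 3 genotypes. WT cells carried the Foxp3RFP allele, a working Foxp3 gene with a red reporter. Foxp3-deficient cells carried Foxp3∆EGFPiCre, an allele that makes EGFP and Cre recombinase (EGFPiCre) but no working Foxp3, and double-deficient cells carried Foxp3∆EGFPiCre with Rictor∆/∆, a deletion of the subunit that defines mTOR complex 2. The labels name 2 kinds of donor mice, Foxp3∆EGFPiCre/RFP R26YFP and Foxp3∆EGFPiCre/+ Rictor∆/∆ R26YFP, both with the R26YFP reporter and both heterozygous at Foxp3, so that each host also had a working Foxp3 allele. Cells were double-sorted as CD4+ and positive for RFP or YFP, and Cre was driven from the Foxp3 allele. WT cells thus carried the RFP allele and both other groups the Cre allele. In comparisons with WT, Foxp3 loss cannot be told apart from Cre or from the reporter allele. The RFP allele and Rictor∆/∆ are named in different donor mice, so double-deficient and WT cells also differ in donor. Which animal gave which library is not in the labels, so a p-value here reflects only the spread among these libraries, which may be technical. Libraries are named by group and by the replicate number of the labels.

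Foxp3 acts in complexes with other DNA-binding factors. Runx1 and Runx3 bind DNA better when joined to Cbfb, the core binding factor beta subunit, and Runx-Cbfb complexes are known to bind the Foxp3 gene and to help keep it switched on. Ikaros factors bind DNA as dimers and recruit chromatin-remodelling and corepressor complexes. Helios (Ikzf2) and Eos (Ikzf4) are enriched in Treg cells, and Eos is known as a corepressor of Foxp3, while Ikaros (Ikzf1) and Aiolos (Ikzf3) are expressed more widely in lymphocytes.

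The start sites of the members show how often the short DNA motifs of these same factors occur there. RefSeq (GRCm38.p6) gave 11 promoters for 7 of the 10 members, and none was found for Ikzf2, Ikzf3 and Ikzf4. The 250 bases before each start were searched on both strands for a Runx motif (TGTGGT or ACCACA), an Ikaros motif (TGGGAA or TTCCCA) and a forkhead motif (GTAAACA or TGTTTAC), and no motif contains another. Of 32851 promoters in the table, 14.05% held the Runx motif, 21.59% the Ikaros motif and 3.17% the forkhead motif. Matches were found in 2 of the 11 member promoters. Runx3 promoter 1 held 2 Runx motifs, starting 134 and 126 bases before the start site, and 1 Ikaros motif at 154 bases, and the Runx2 promoter held 1 Runx motif at 80 bases. The sequences below are these 2 promoters and both Foxp3 promoters, shown because Foxp3 had the largest change of the 10. They are written 5′ to 3′ on the strand of the gene, with motif matches in capitals. A match is only a run of letters, and its absence says only that these letters do not occur in the window.
Foxp3 promoter 1, chrX:7579426-7579675 (plus strand): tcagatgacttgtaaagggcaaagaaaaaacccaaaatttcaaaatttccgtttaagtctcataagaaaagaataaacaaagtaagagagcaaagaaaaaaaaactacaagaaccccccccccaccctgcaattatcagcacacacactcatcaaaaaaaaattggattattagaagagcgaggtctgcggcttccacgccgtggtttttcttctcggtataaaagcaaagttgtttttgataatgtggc
Foxp3 promoter 2, chrX:7580233-7580482 (plus strand): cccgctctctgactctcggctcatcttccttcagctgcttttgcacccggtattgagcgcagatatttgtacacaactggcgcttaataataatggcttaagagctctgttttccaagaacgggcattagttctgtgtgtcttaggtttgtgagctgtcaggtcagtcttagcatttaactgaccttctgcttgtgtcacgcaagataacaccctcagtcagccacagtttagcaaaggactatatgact
Runx3 promoter 1, chr4:135120395-135120644 (plus strand): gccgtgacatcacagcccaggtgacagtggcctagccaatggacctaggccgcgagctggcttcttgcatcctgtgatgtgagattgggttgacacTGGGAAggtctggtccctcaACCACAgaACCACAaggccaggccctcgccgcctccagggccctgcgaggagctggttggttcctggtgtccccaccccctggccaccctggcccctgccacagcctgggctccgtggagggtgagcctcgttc
Runx2 promoter, chr17:44814628-44814877 (minus strand): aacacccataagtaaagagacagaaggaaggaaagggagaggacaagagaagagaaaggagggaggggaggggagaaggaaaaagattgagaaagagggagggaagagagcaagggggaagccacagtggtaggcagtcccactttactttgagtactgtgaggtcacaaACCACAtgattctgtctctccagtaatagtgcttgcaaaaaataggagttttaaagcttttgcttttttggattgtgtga

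The libraries held 15769737 to 26114044 reads assigned to genes. On the first principal component, which took 38.5% of the variance, the groups took separate ranges, -52.0 to -44.9 for WT, -10.5 to 22.9 for Foxp3-deficient and 37.3 to 46.3 for double-deficient cells. Foxp3-deficient 1 stood apart on the second component (21.2% of the variance) at -59.4, and Foxp3-deficient 3 on the third (9.38%) at 55.2. Reads without a unique alignment made up 27.03% ± 1.26 of all reads for WT, 26.9% ± 2.80 for Foxp3-deficient and 32.1% ± 0.854 for double-deficient libraries (mean ± SD, n = 4). T cell and Treg markers were detected for 8 of 8 genes, which did not move alike. Cd3e had a mean of 1211 CPM (reads scaled to a common library size) for WT, 1110.4 for Foxp3-deficient and 1074 for double-deficient cells. In the same order, Cd3d was at 400.1, 343.65 and 547.7 CPM and Cd3g at 727.6, 630.4 and 928.1 CPM. Cd4 was at 756.6, 1079 and 866.6 CPM. Il2ra was at 534, 185 and 260.5 CPM, Ctla4 at 349.1, 245.5 and 347.02 CPM and Tnfrsf18 at 289.1, 128.4 and 270.3 CPM. For Il2ra and Nrp1, every library of both other groups was below the WT range. Myeloid markers summed to at most 3.74 CPM in any library, with Adgre1, S100a8 and S100a9 at 0 in WT and Foxp3-deficient cells, dendritic cell markers to at most 8.08 CPM and erythroid and platelet markers to at most 1.99 CPM. The 8 B cell markers summed to 1257 to 1489 CPM for WT, 670.4 to 833 CPM for Foxp3-deficient and 772 to 941 CPM for double-deficient cells, nearly all from Ighm (means of 1368, 733 and 852 CPM), with Ms4a1 at 0 in Foxp3-deficient cells. Plasma cell markers summed to 37.6 to 58.3 CPM, 19.8 to 32.3 CPM and 50.3 to 58.4 CPM in the same order. Most of this came from Prdm1 (means of 45.6, 23.6 and 40.8 CPM), while Jchain was at 1.27, 0.902 and 11.6 CPM. These sums moved with genotype, and their part in the results was not tested. Rictor itself was at 148 ± 14.4, 189 ± 31.2 and 141 ± 12.6 CPM in that order, and a whole-gene count does not check a deletion of some exons.

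In Foxp3-deficient cells, the Foxp3 transcript and the Treg-enriched Ikaros factors Helios and Eos fell, whereas Ikaros, Aiolos, Runx1 and Runx3 rose. Of the 10 members, 7 passed the test in Foxp3-deficient against WT cells (adjusted p under 0.05 in edgeR's quasi-likelihood test, Benjamini-Hochberg over all 13196 genes), where 13.7% of all genes tested did. Those that rose numbered 4 (6.99% of all genes) and those that fell 3 (6.74%). The number that rose was 2 without WT 1, WT 5, Foxp3-deficient 4 or Foxp3-deficient 5. For the same 7 no Foxp3-deficient library fell inside the WT range, against 17.8% of all genes (8.52% higher and 9.26% lower). Among the 7 is Foxp3, whose own allele the genotype alters. The members were chosen with earlier results of these data known, so these counts are a description and no test of the families. The median log2 fold change over all 10 was 0.05, beside a median of 0.00045 over all genes. In bulk RNA, fewer cells of a type and less RNA per cell cannot be told apart, and this holds for every value here.

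**Figure D1:**
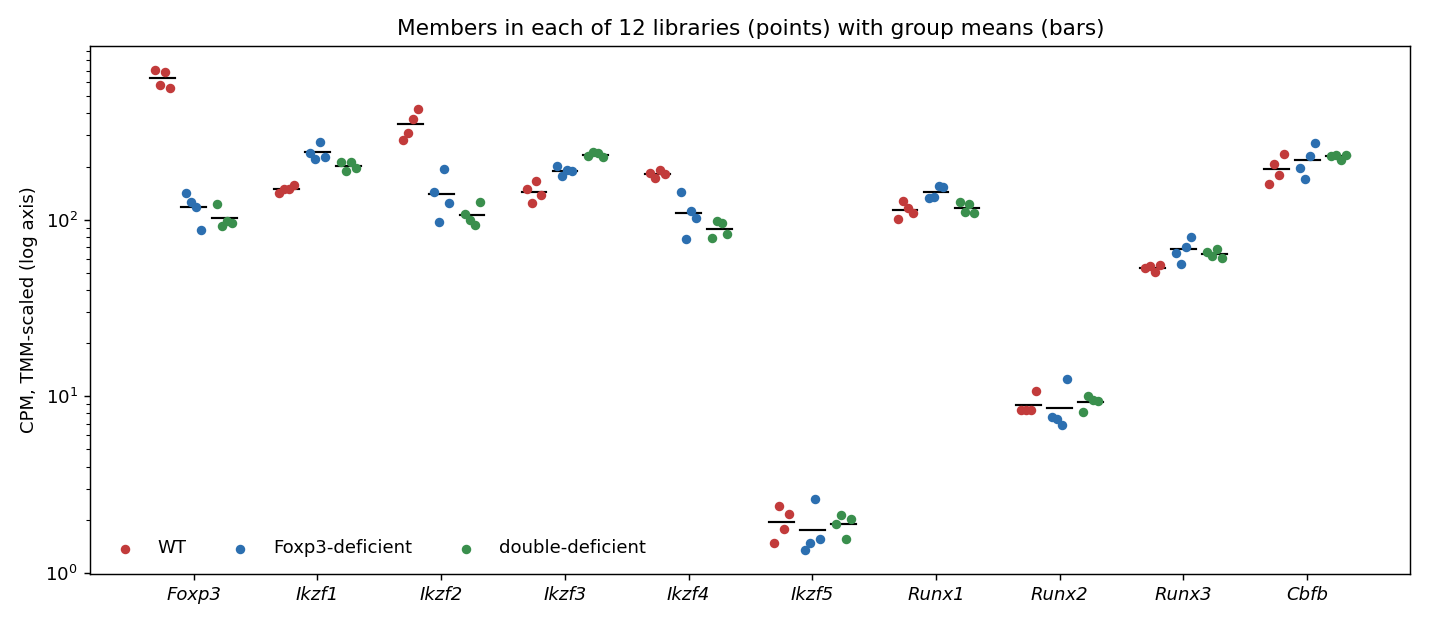
CPM (TMM-scaled, log y axis) of each of the 10 genes in every library, with a point per library coloured by group (4 libraries each) and a bar for each group mean. Foxp3, Ikzf2 and Ikzf4 sit lower in every Foxp3-deficient and double-deficient library than in any WT library, and Ikzf1 and Ikzf3 higher.

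Foxp3 lies on chromosome X at 7573644 to 7595245 on the plus strand (GRCm38, GENCODE M21, ENSMUSG00000039521.13). Its level was 705, 580.3, 690.2 and 556 CPM in WT 1, 3, 4 and 5. It was 142, 126, 117 and 87.9 CPM in Foxp3-deficient 1, 3, 4 and 5, and 122, 91.8, 98.8 and 95.7 CPM in double-deficient 2, 3, 4 and 5. Every Foxp3-deficient and double-deficient library was far below every WT library, and these 2 groups overlapped. Foxp3 fell by 2.42 on the log2 scale in Foxp3-deficient cells (SE 0.14, 95% interval -2.72 to -2.12, edgeR adjusted p = 1.18e-08), a level 5.35-fold lower. Between double-deficient and Foxp3-deficient cells the log2 fold change was -0.21 (interval -0.50 to 0.07, edgeR adjusted p = 0.246). It passed only when Foxp3-deficient 5 was left out (-0.33, edgeR adjusted p = 0.0448, the range over 23 alternatives being 0.0448 to 0.977). The Foxp3-deficient and double-deficient libraries still held 1750 to 2628 Foxp3 reads. The counts do not tell from which exons these came or whether the reporter allele's transcript was counted. Other annotated genes share 31.53% of Foxp3's exonic bases, among them Flicr on the same strand (18.64%), which was not a gene of the count table.

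The Treg-enriched Ikaros factors fell. Helios, encoded by Ikzf2 (chromosome 1, 69531214 to 69687245, minus strand), had 283, 309, 371 and 424 CPM in WT 1, 3, 4 and 5. It had 144, 97.4, 194 and 125 CPM in Foxp3-deficient 1, 3, 4 and 5 and 108, 99.6, 93.0 and 126 CPM in double-deficient 2, 3, 4 and 5. The lowest WT library was above the highest of both other groups, which overlapped each other. Ikzf2 fell 2.47-fold in Foxp3-deficient cells (log2 -1.31, SE 0.18, 95% interval -1.69 to -0.92, edgeR adjusted p = 0.000151). Against Foxp3-deficient cells the double-deficient value was -0.40 (interval -0.78 to -0.01, edgeR adjusted p = 0.113), and it passed without Foxp3-deficient 3 (-0.53, edgeR adjusted p = 0.0196) and without both libraries that stood apart (-0.58, edgeR adjusted p = 0.0387), in a range of 0.0196 to 0.376 over the alternatives.

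Eos, encoded by Ikzf4 (chromosome 10, 128630843 to 128645991, minus strand), had 184, 173, 191 and 182 CPM in WT 1, 3, 4 and 5. Foxp3-deficient 1, 3, 4 and 5 had 143, 77.9, 111 and 102 CPM, and double-deficient 2, 3, 4 and 5 had 78.7, 98.6, 95.2 and 82.7 CPM. All 8 Foxp3-deficient and double-deficient libraries were below the WT range, and Foxp3-deficient 1 was the highest of them. Ikzf4 fell 1.68-fold in Foxp3-deficient cells (log2 -0.75, SE 0.14, interval -1.04 to -0.46, edgeR adjusted p = 0.00127). Its difference between double-deficient and Foxp3-deficient cells was -0.29 (interval -0.58 to 0.0027, edgeR adjusted p = 0.127). It passed without Foxp3-deficient 3 (-0.42, edgeR adjusted p = 0.0112), with 0.0112 to 0.851 over the alternatives.

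The widely expressed Ikaros factors rose. Ikaros itself, encoded by Ikzf1 (chromosome 11, 11685003 to 11772926, plus strand), had 142, 149.8, 149 and 156 CPM in WT 1, 3, 4 and 5. It had 239, 221, 277 and 228 CPM in Foxp3-deficient 1, 3, 4 and 5 and 212, 189, 211 and 195 CPM in double-deficient 2, 3, 4 and 5. The 3 groups did not overlap, with Foxp3-deficient cells highest and WT lowest. Against WT, Ikzf1 was 1.61-fold higher in Foxp3-deficient cells (log2 0.69, SE 0.081, interval 0.52 to 0.86, edgeR adjusted p = 2.03e-05). Against Foxp3-deficient cells it was 1.195-fold lower in double-deficient cells (log2 -0.26, SE 0.080, interval -0.43 to -0.09, edgeR adjusted p = 0.0281). That second call was lost under 7 of 23 alternatives, among them without Foxp3-deficient 4 (-0.18, edgeR adjusted p = 0.102), double-deficient 3 (-0.21, 0.0959) or double-deficient 5 (-0.23, 0.0836), with a range of 0.0129 to 0.102.

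Aiolos, encoded by Ikzf3 (chromosome 11, 98464902 to 98546031, minus strand), had 149, 124, 165 and 137 CPM in WT 1, 3, 4 and 5. Foxp3-deficient 1, 3, 4 and 5 had 202, 176, 192 and 189 CPM and double-deficient 2, 3, 4 and 5 had 229, 241, 238 and 226 CPM. The order was WT, Foxp3-deficient and double-deficient from low to high, again with no overlap between groups. Against WT, Ikzf3 was 1.32-fold higher in Foxp3-deficient cells (log2 0.40, SE 0.085, interval 0.22 to 0.58, edgeR adjusted p = 0.00401). Against Foxp3-deficient cells it was a further 1.23-fold higher in double-deficient cells (log2 0.30, SE 0.084, interval 0.12 to 0.48, edgeR adjusted p = 0.0183). Both calls held under all 23 alternatives run.

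Pegasus, the Ikaros family member encoded by Ikzf5 (chromosome 7, 131388652 to 131410521, minus strand), gave too few reads for a firm statement. Its counts were 24 to 51 reads per library. The means were 1.95 ± 0.409 CPM for WT, 1.76 ± 0.592 CPM for Foxp3-deficient and 1.89 ± 0.251 CPM for double-deficient cells (SD, n = 4). The 3 groups overlapped. The log2 fold change in Foxp3-deficient against WT cells was -0.15 (interval -0.77 to 0.48, edgeR adjusted p = 0.814), so a difference within that interval was not detectable at this depth. Other genes, mainly Pstk on the opposite strand (81.31%), share 84.51% of its exonic bases, and no source used here gives the strand setting of the counting.

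Among the Runx factors, Runx1 and Runx3 rose by small amounts in Foxp3-deficient cells. Runx1 (chromosome 16, 92601466 to 92826149, minus strand) had 101, 128, 116 and 109 CPM in WT 1, 3, 4 and 5. It had 132, 135, 155 and 154 CPM in Foxp3-deficient 1, 3, 4 and 5 and 126, 110.3, 122 and 109 CPM in double-deficient 2, 3, 4 and 5. Foxp3-deficient cells were above both other groups without overlap, and the WT and double-deficient ranges overlapped. Against WT, Runx1 was 1.27-fold higher in Foxp3-deficient cells (log2 0.34, SE 0.091, interval 0.15 to 0.53, edgeR adjusted p = 0.0186) and, against these, 1.23-fold lower in double-deficient cells (log2 -0.30, SE 0.091, interval -0.49 to -0.11, edgeR adjusted p = 0.0248). The first call was lost without WT 1 (edgeR adjusted p = 0.0846), WT 5 (0.0582), Foxp3-deficient 4 (0.0612) or Foxp3-deficient 5 (0.0512), in a range of 0.00544 to 0.0846. The second was lost without Foxp3-deficient 4 (edgeR adjusted p = 0.0754), Foxp3-deficient 5 (0.0568), double-deficient 3 (0.0783) or double-deficient 5 (0.0816), and when the length and GC trend described below was removed (log2 -0.08, 0.555), in a range of 0.0106 to 0.555.

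Runx3 (chromosome 4, 135120652 to 135177990, plus strand), whose promoter is printed above, had 53.6, 54.7, 50.5 and 55.7 CPM in WT 1, 3, 4 and 5. Foxp3-deficient 1, 3, 4 and 5 had 64.7, 56.2, 70.3 and 80.2 CPM and double-deficient 2, 3, 4 and 5 had 65.9, 62.6, 68.0 and 60.7 CPM. All 8 Foxp3-deficient and double-deficient libraries were above the WT range, though Foxp3-deficient 3 only just. Against WT, Runx3 was 1.27-fold higher in Foxp3-deficient cells (log2 0.34, SE 0.10, interval 0.13 to 0.56, edgeR adjusted p = 0.035). This call was lost under 9 of 23 alternatives (edgeR adjusted p from 0.00186 to 0.113), among them without any 1 of the 4 WT libraries (0.0898, 0.0758, 0.111 and 0.0593 without WT 1, 3, 4 and 5), without Foxp3-deficient 4 (0.0835) and without Foxp3-deficient 5 (log2 0.25, 0.113). Foxp3-deficient 5 had the highest Runx3, and also the highest sum of NK and CD8 cell markers, 154.8 CPM beside a low of 46.5 CPM in that group and 61.8 to 80.6 CPM in WT. Nkg7 had the highest mean of these markers in that group and reached 106.9 CPM in a library, while Cd8a was at most 0.568 CPM. The part of these markers in the Runx3 value was not tested. Between double-deficient and Foxp3-deficient cells the Runx3 value was -0.08 (interval -0.29 to 0.14, edgeR adjusted p = 0.588).

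Runx2, the family member best known from bone, was low, at 8.96 ± 1.19 CPM for WT, 8.62 ± 2.60 CPM for Foxp3-deficient and 9.26 ± 0.815 CPM for double-deficient cells (SD, n = 4). The groups overlapped, with log2 -0.05 (interval -0.46 to 0.36, edgeR adjusted p = 0.905) in Foxp3-deficient against WT cells. Cbfb (chromosome 8, 105170674 to 105217989, plus strand) had 195 ± 32.4, 217 ± 43.7 and 229 ± 6.66 CPM in the same order. Its log2 fold change in Foxp3-deficient against WT cells was 0.16 (interval -0.12 to 0.43, edgeR adjusted p = 0.516), and the libraries overlapped. The sum of the 3 Runx factors per unit of Cbfb, with each gene's CPM divided by its exonic length in kb, was 0.385 for WT (0.318 to 0.437), 0.431 for Foxp3-deficient (0.387 to 0.473) and 0.360 for double-deficient cells (0.333 to 0.394). These ranges overlapped.

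**Figure D2:**
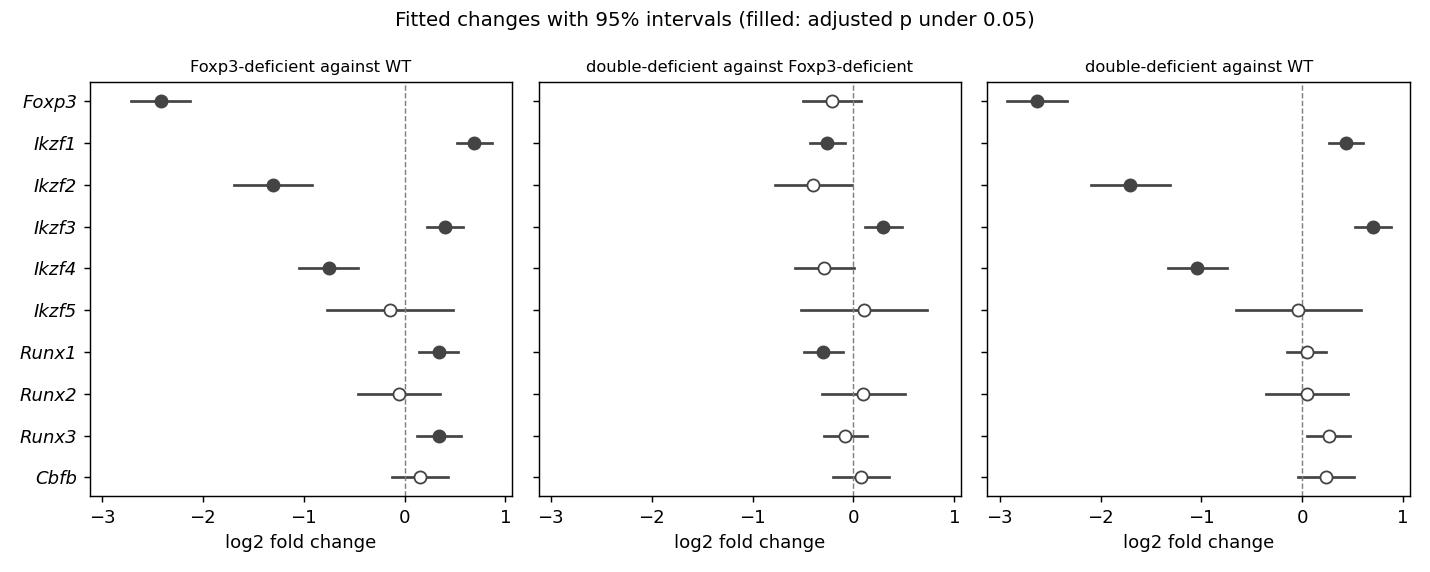
Log2 fold changes (x axis) of the 10 genes in each comparison, with 95% intervals (lines) from edgeR, filled where the adjusted p was under 0.05. Foxp3, Ikzf2 and Ikzf4 are lower and Ikzf1 and Ikzf3 higher than WT in both other groups, and Ikzf3 is the only member that passed as higher in the comparison of double-deficient with Foxp3-deficient cells.

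Between double-deficient and Foxp3-deficient cells, 3 of the 10 members were called. The donor mice named with Rictor∆/∆ also differ in their other Foxp3 allele, so Rictor loss and donor genotype cannot be told apart. Against Foxp3-deficient cells, Ikzf3 rose and Ikzf1 and Runx1 fell, where 27.2% of all genes passed (13.9% higher and 13.3% lower). The same 3 had no overlap between groups, against 25% of all genes (13.7% higher and 11.3% lower). The share of members called was thus near that of all genes. The median log2 fold change of the 10 was -0.15, beside -0.025 for all genes. Without Foxp3-deficient 3 the count was 5, and without Foxp3-deficient 4, double-deficient 3 or double-deficient 5 it was 1.

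Against WT, double-deficient cells showed 5 called members, Ikzf1 and Ikzf3 higher and Foxp3, Ikzf2 and Ikzf4 lower, where 32.6% of all genes passed (15.8% higher and 16.8% lower). With Runx3 added, 6 of the 10 had no overlap (3 higher and 3 lower), against 39.7% of all genes (20.5% higher and 19.2% lower). This comparison and Foxp3-deficient against WT share their control libraries, and Foxp3, whose own allele the genotype alters, is among the members called in both. Foxp3 was 6.20-fold lower than WT in double-deficient cells (log2 -2.63, SE 0.14, edgeR adjusted p = 2.95e-09) beside 5.35-fold in Foxp3-deficient cells. Ikzf2 was 3.26-fold lower (log2 -1.70, SE 0.18, edgeR adjusted p = 1.19e-05) beside 2.47-fold. Ikzf4 was 2.06-fold lower (log2 -1.04, SE 0.14, edgeR adjusted p = 5.78e-05) beside 1.68-fold. The rises were 1.35-fold for Ikzf1 (log2 0.43, SE 0.081, edgeR adjusted p = 0.000972) beside 1.61-fold, and 1.62-fold for Ikzf3 (log2 0.70, SE 0.085, edgeR adjusted p = 2.5e-05) beside 1.32-fold. Runx1 stood at 0.04 (interval -0.15 to 0.24, edgeR adjusted p = 0.748) and passed only with the length and GC trend removed (0.30, 0.0161, range 0.0161 to 0.974). Runx3 stood at 0.26 (interval 0.05 to 0.48, edgeR adjusted p = 0.0588) and passed under 7 of 23 alternatives (range 0.0113 to 0.155), among them without Foxp3-deficient 1 (0.0463), 3 (0.0255) or 5 (0.0336), which enter through the shared estimate of spread.

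**Figure D3:**
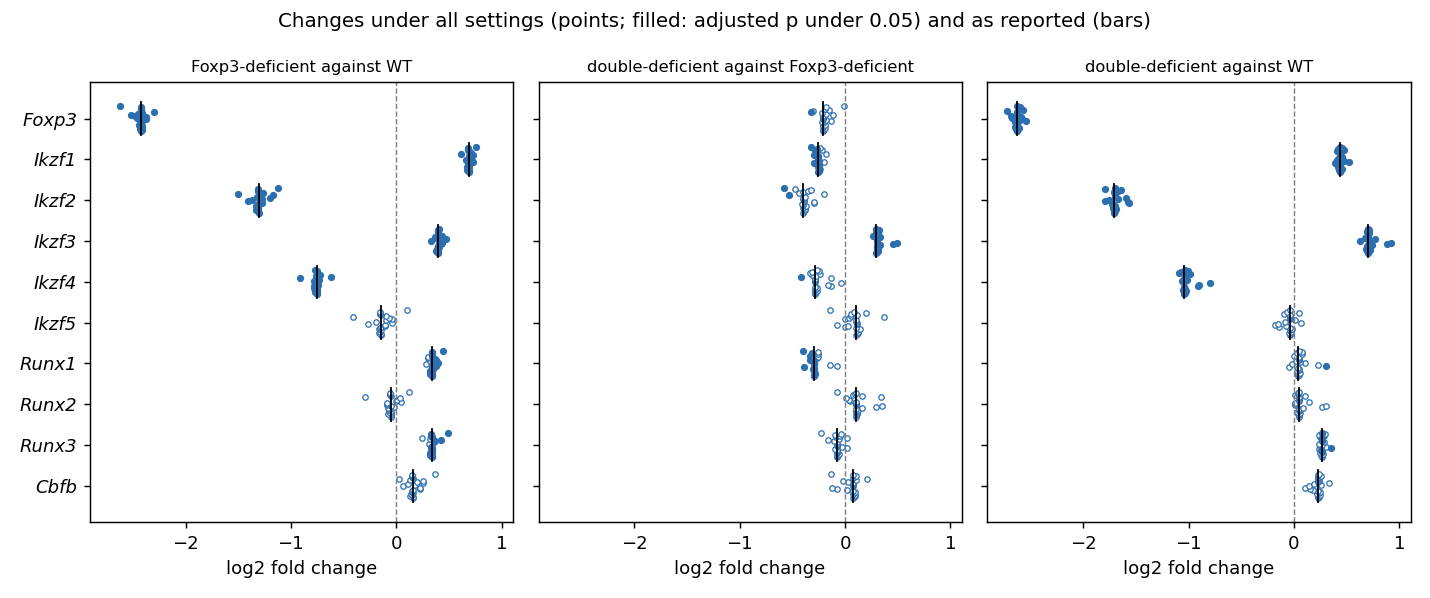
Log2 fold changes of the members (x axis) under the alternative settings (points, filled where the adjusted p was under 0.05) and as reported (bars), for each comparison. Foxp3, Ikzf2 and Ikzf4 against WT and Ikzf1 and Ikzf3 against WT keep their side of 0 throughout, while Ikzf5, Runx2 and Cbfb lie around 0 in double-deficient against Foxp3-deficient cells.

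To set levels of different genes side by side, CPM were divided by exonic length in kb. This length covers all annotated exons of a gene, not only those of the transcripts expressed, so the order and the family shares below are approximate. By this measure Foxp3 was the most abundant member in WT cells at 138 CPM per kb. It was followed by Cbfb (56.0 ± 9.32), Ikzf4 (30.5 ± 1.19), Ikzf2 (29.9 ± 5.43), Ikzf1 (25.9 ± 1.004), Ikzf3 (16.4 ± 1.97), Runx3 (10.7 ± 0.451) and Runx1 (9.45 ± 0.966), with Runx2 and Ikzf5 at 1.01 and 0.340 CPM per kb (mean ± SD, n = 4). The library ranges of Ikzf4 and Ikzf2, of Ikzf2 and Ikzf1, and of Runx3 and Runx1 overlapped, though Runx3 was above Runx1 in each of the 4 WT libraries. In Foxp3-deficient cells Cbfb led at 62.3 CPM per kb, followed by Ikzf1 at 41.8, Foxp3 at 25.9 and Ikzf3 at 21.7, the library ranges of the last 2 overlapping. In double-deficient cells the order was Cbfb at 65.8, Ikzf1 at 34.9, Ikzf3 at 26.7 and Foxp3 at 22.3 CPM per kb, the library ranges of the last 2 again overlapping. Ikzf5 and Foxp3 are placed with caution, since other genes share part of their exons. With all reads of a gene divided by its unshared exonic length alone, Ikzf5 had 2.20 and Foxp3 202 ± 24.2 CPM per kb in WT. Reads on unshared exons were not counted apart, so these values would apply only if no read on shared exons was counted. Divided in this way, double-deficient cells had Foxp3 at 32.6 and Ikzf3 at 26.7 CPM per kb, the reverse of their order above. The order thus rests on the length used, and Flicr, which shares exons with Foxp3, was not a gene of the count table.

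The makeup of the Ikaros family differed between genotypes. Among the 5 members per kb, Ikzf2 took 28.8% ± 3.36 and Ikzf4 29.7% ± 1.68 of the family's summed level in WT, and Ikzf1 25.2% ± 1.39 and Ikzf3 16.0% ± 1.70 (SD, n = 4). In Foxp3-deficient cells Ikzf1 took 44.6% ± 2.81 and Ikzf3 23.3% ± 1.94, while Ikzf2 took 12.7% ± 2.26 and Ikzf4 19.1% ± 3.19. In double-deficient cells Ikzf3 reached 31.0% ± 0.755, with Ikzf1 at 40.65% ± 2.02, Ikzf4 at 17.2% ± 1.74 and Ikzf2 at 10.7% ± 1.57. The share of Ikzf1 ranged from 23.7% to 27.004% in WT and from 41.0% to 47.8% in Foxp3-deficient libraries, without overlap. The family's sum was 103 ± 7.41, 93.9 ± 11.6 and 85.9 ± 1.40 CPM per kb in WT, Foxp3-deficient and double-deficient cells. Per unit of Ikzf1, Ikzf2 was at 1.15 ± 0.171 for WT, 0.285 ± 0.0539 for Foxp3-deficient and 0.264 ± 0.0420 for double-deficient cells. Within the Runx family, Runx1 took 44.6%, 45.3% and 41.2% and Runx3 50.7%, 51.0% and 54.4% of the sum in the same order of groups.

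**Figure D4:**
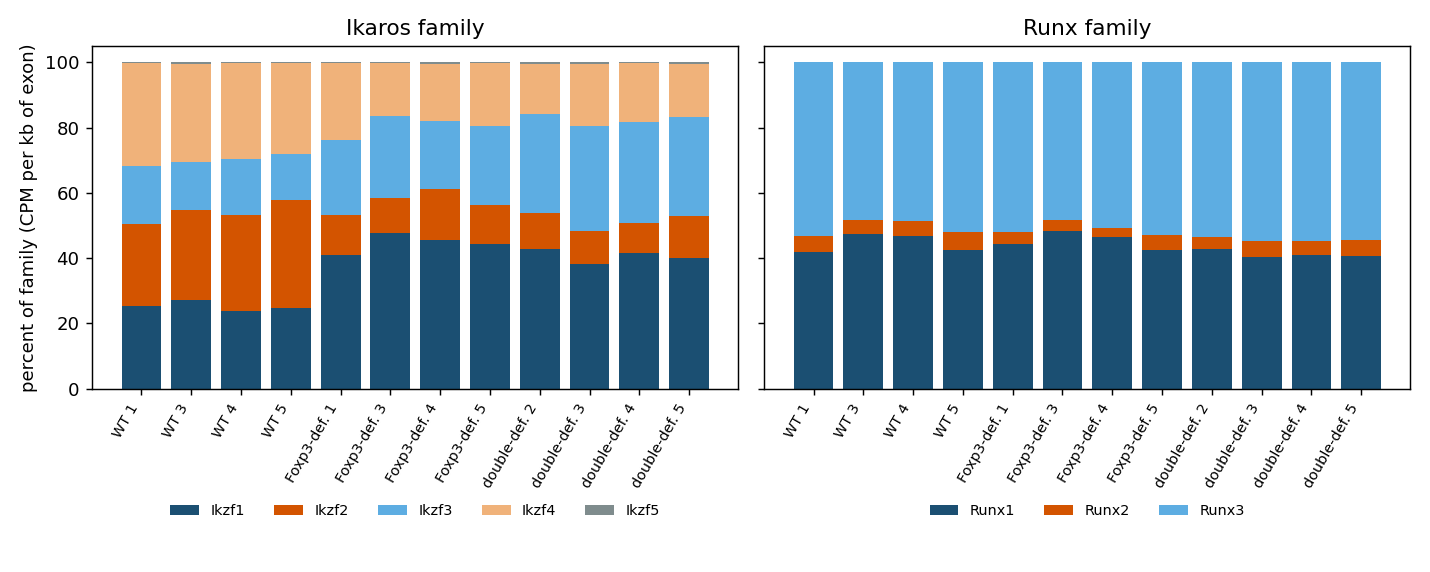
Share of each member in the summed level of its family (CPM per kb of exon, y axis in percent), as 1 stacked bar for each of the 12 libraries. On average over 4 libraries, Ikzf1 takes 25.2% of its family in WT and 44.6% in Foxp3-deficient cells, and Ikzf2 takes 28.8% and 12.7%.

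Relative to Foxp3 itself, Ikzf2 was at 0.220 ± 0.0590 per kb for WT, 0.479 ± 0.156 for Foxp3-deficient and 0.416 ± 0.0756 for double-deficient cells (SD, n = 4). Ikzf4 per unit of Foxp3 was at 0.222 ± 0.0222, 0.712 ± 0.174 and 0.677 ± 0.140. For both ratios the WT range lay below the ranges of the other groups, for Ikzf2 by little (0.158 to 0.300 in WT, from 0.304 in Foxp3-deficient cells). The level of Foxp3 per unit of Runx1 was 14.8 ± 2.81 for WT, 2.19 ± 0.574 for Foxp3-deficient and 2.29 ± 0.183 for double-deficient cells.

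Fold changes moved with gene length across the table. With genes split into 5 length classes, the median log2 fold change of double-deficient against Foxp3-deficient cells was 0.25 for the shortest (up to 2147 bp of exon) and -0.22 for the longest (from 7187 bp). Spearman's rho across 13072 genes, which are not independent replicates, was -0.287, beside 0.11 in Foxp3-deficient against WT cells. Ikzf2 (11613 bp), Ikzf3 (8754 bp), Runx1 (12025 bp) and Runx2 (8837 bp) were in the longest class. With each library's trend in length and GC removed, Runx1 moved from -0.30 to -0.08 and Ikzf1 from -0.26 to -0.20 in that comparison (edgeR adjusted p = 0.555 and 0.0602), neither passing, in ranges over the alternatives of 0.0106 to 0.555 and 0.0129 to 0.102. Ikzf3, in contrast, moved from 0.30 to 0.46 and passed (edgeR adjusted p = 0.00102, range 0.00102 to 0.0436).

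**Figure D5:**
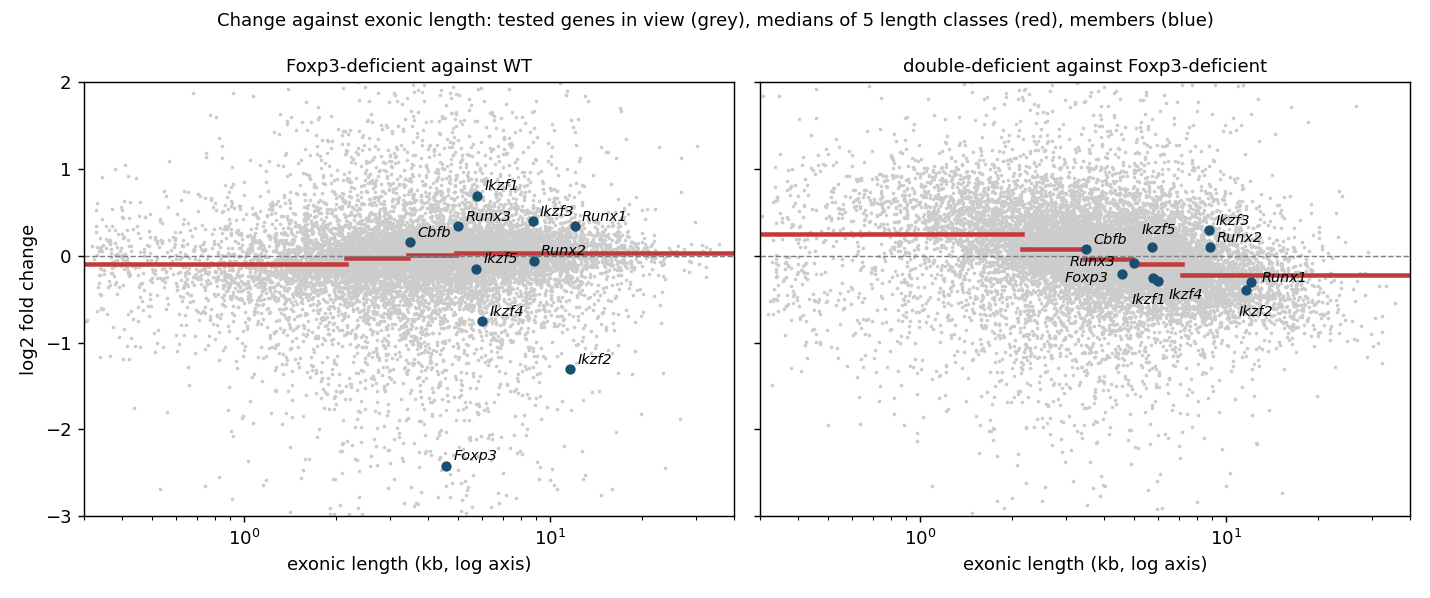
Log2 fold change against exonic length in kb (log axis) for tested genes (grey), the median of 5 length classes (red lines) and the members (blue), for Foxp3-deficient against WT and double-deficient against Foxp3-deficient. In the second panel the class medians run from 0.25 to -0.22, and Runx1 lies near the median of its class while Ikzf3 lies above it.

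Genes of other proteins that bind Foxp3 changed in both directions. Of 20 tested, 4 rose and 4 fell in Foxp3-deficient against WT cells (6.99% and 6.74% of all genes), with a median log2 fold change of 0.08. For this and the next 4 lists, the median of all genes was 0.00045 in that comparison, -0.025 in double-deficient against Foxp3-deficient and -0.026 in double-deficient against WT cells. Tcf7, encoding the T cell factor TCF-1, rose by 1.11 (edgeR adjusted p = 3.5e-08), and Gata3, the Th2 factor, changed by -0.44 (edgeR adjusted p = 0.000483). The number that fell was 2 without WT 4, WT 5 or Foxp3-deficient 4 and in a fit of only these groups, and the number that rose was 2 without both Foxp3-deficient 1 and 3. In double-deficient against Foxp3-deficient cells, 2 rose and 8 fell (13.9% and 13.3% of all genes, median -0.22). Foxo1, a forkhead factor that acts on the Foxp3 locus, fell (log2 -0.90, edgeR adjusted p = 0.000152), as did Nfatc2, the calcium-regulated NFAT partner of Foxp3 (log2 -0.75, 2e-04), and Bcl11b, a T cell identity factor (log2 -0.61, 0.000255). The number that fell was 5 without Foxp3-deficient 1 and 4 without double-deficient 5, and the number that rose was 1 without Foxp3-deficient 4 or double-deficient 5. With the length and GC trend removed, 5 fell. Against WT, double-deficient cells had 2 higher and 6 lower (15.8% and 16.8% of all genes; median -0.18; 4 higher and 3 lower with the trend removed), with Tcf7 at 0.94 (edgeR adjusted p = 1.63e-07) and Nfatc2 at -0.67 (0.000179).

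Factors that act on the Foxp3 locus are a list of transcription factors and chromatin enzymes. Of 21 tested, 3 rose and 2 fell in Foxp3-deficient against WT cells (6.99% and 6.74% of all genes; median log2 fold change 0.09), with Satb1, a chromatin organiser, up by 0.68 (edgeR adjusted p = 5.97e-05), Smad2, a TGF-beta signal transducer, by 0.31 (0.00546) and Uhrf1, a DNA methylation maintenance factor, by 0.88 (0.00707). The number that fell was 1 without WT 3, WT 4, WT 5, Foxp3-deficient 4 or Foxp3-deficient 5. In double-deficient against Foxp3-deficient cells, 1 rose and 11 fell (13.9% and 13.3% of all genes, median -0.34). Foxo1 and Nfatc2 were among them, and so was Tet2, an enzyme that oxidises methylated cytosine (log2 -1.10, edgeR adjusted p = 0.000728). With the length and GC trend removed, the number that fell was 6, and 4 with the replicate block as well. Without Foxp3-deficient 3 the number that rose was 2. Against WT, double-deficient cells had 3 higher and 12 lower (15.8% and 16.8% of all genes; median -0.43), with Smad3 at -0.65 (edgeR adjusted p = 0.000114), Nfatc2 at -0.67 (0.000179) and Tet2 at -1.16 (0.000179).

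Of 17 NuRD, Sin3 and CtBP corepressor genes, through which Ikaros factors act, 2 rose and 0 fell in Foxp3-deficient against WT cells (median log2 fold change 0.11), a share near the 13.7% of all genes called. Ctbp1, a corepressor, rose by 0.27 (edgeR adjusted p = 0.0103), and Mta2, a NuRD subunit, by 0.23 (0.0306), a call lost without WT 1, 3, 4 or 5 or Foxp3-deficient 5, where 1 gene remained called. Between double-deficient and Foxp3-deficient cells 1 rose and 4 fell (median -0.03), also near the 27.2% of all genes. The number that rose was 3 with the length and GC trend removed. Sin3a, the Sin3 scaffold, fell by 0.50 on the log2 scale (edgeR adjusted p = 0.00255), Chd3, a NuRD remodeller, by 0.79 (0.00321) and Chd4, its close relative, by 0.48 (0.00437). Without Foxp3-deficient 5 the number that rose was 2. Against WT, 6 rose and 4 fell in double-deficient cells (15.8% and 16.8% of all genes; median 0.17), with Hdac2, a deacetylase, at 0.44 (edgeR adjusted p = 0.000976), Chd3 at -0.75 (0.00255) and Mbd2, a methyl-CpG binding protein, at 0.36 (0.00658). The number that rose was 3 without WT 3, WT 4 or double-deficient 3, and the number that fell was 2 without double-deficient 5 or with the trend removed, and 1 with the trend removed and the replicate block.

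Runx cofactors include Groucho corepressors and acetyltransferases that bind Runx proteins. Of 13 genes 12 were tested, and in Foxp3-deficient against WT cells 1 rose, the Groucho family corepressor Tle4 (log2 0.56, edgeR adjusted p = 9.85e-05), and 0 fell (6.99% and 6.74% of all genes; median 0.01). The number that rose was 2 without Foxp3-deficient 1 or with the length and GC trend removed, and 3 without both Foxp3-deficient 1 and 3, and without Foxp3-deficient 3 the number that fell was 1. In double-deficient against Foxp3-deficient cells 2 rose and 7 fell (13.9% and 13.3% of all genes; median -0.36). Tle3, another Groucho corepressor, fell by 1.07 on the log2 scale (edgeR adjusted p = 3.07e-06), Tle4 by 0.40 (0.00221) and Crebbp, an acetyltransferase, by 0.53 (0.00388). With the length and GC trend removed, 2 fell, and Crebbp, at -0.20, did not pass. The number that rose was 1 without Foxp3-deficient 1, 4 or 5 or double-deficient 2, 3 or 4. Against WT, 1 rose and 5 fell in double-deficient cells (15.8% and 16.8% of all genes; median -0.14; 2 and 3 with the trend removed), with Tle3 at -0.82 (edgeR adjusted p = 1e-05), Kat6a, an acetyltransferase, at -0.71 (0.00051) and Prmt1, an arginine methyltransferase, at 0.57 (0.00116). Without Foxp3-deficient 1 the number that rose was 2.

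Of 15 T cell genes known to be regulated by Runx factors, 14 were tested. In Foxp3-deficient against WT cells 5 rose and 1 fell (6.99% and 6.74% of all genes; median log2 fold change 0.58). With the stricter filter on low counts, 3 rose. Itgae, encoding the integrin CD103, fell from 56.8 ± 8.21 to 6.10 ± 2.49 CPM (log2 -3.21, SE 0.24, edgeR adjusted p = 2.92e-07). Il7r, the interleukin-7 receptor, rose by 0.85 (edgeR adjusted p = 5.04e-06). Without Foxp3-deficient 5 the number that fell was 2. In double-deficient against Foxp3-deficient cells 4 rose and 4 fell (13.9% and 13.3% of all genes; median 0.67), with Il7r at 0.69 (edgeR adjusted p = 0.000106), Il4, a Th2 cytokine, at 2.84 (0.000548) and Cd8b1, the CD8 beta chain, at 0.61 (0.00425). Cd8b1 did not pass with the length and GC trend removed and the replicate block (log2 0.41). The number that fell was 1 without Foxp3-deficient 1, Foxp3-deficient 4, double-deficient 4 or double-deficient 5, and 2 without Foxp3-deficient 5 or double-deficient 2, with no filter or with the trend removed. Against WT, 7 rose and 1 fell in double-deficient cells (15.8% and 16.8% of all genes; median 1.02; 4 rose with the stricter filter), with Il7r at 1.55 (edgeR adjusted p = 4.96e-09) and Itgae at -2.13 (7.27e-06). The summed NK and CD8 cell markers were 81.6 to 118 CPM in double-deficient cells and 61.8 to 80.6 CPM in WT. They were at 46.5, 52.5, 65.1 and 154.8 CPM in Foxp3-deficient 1, 3, 4 and 5. Only Foxp3-deficient 5 was above the double-deficient libraries, and the rest of its group lay below all of them. The part of these markers in the Cd8b1 value was not tested.

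The genes most like each member over the 12 libraries were found by the root mean square difference of centred log2 CPM, among 8145 genes at a mean of 10 CPM or more. They were chosen for this likeness, so their levels are a description. Closest to Foxp3 were Phlpp1, a phosphatase of AKT (0.248), Lrrc32, the surface carrier of latent TGF-beta (0.292), and Tnfrsf9, the receptor 4-1BB (0.324), where the median gene was at 1.23. Lrrc32 had mean levels of 419 CPM for WT, 73.3 CPM for Foxp3-deficient and 72.7 CPM for double-deficient cells. Closest to Ikzf2 were Wls (0.240), Slc16a3 (0.260) and Ncmap (0.297), with a median gene at 0.803, and closest to Ikzf4 were Tex2 (0.163), Lrrc61 (0.174) and Abcg1 (0.175), with a median of 0.524. Closest to Ikzf1 were Kcnab2 (0.105), Stim1 (0.107) and Dyrk2 (0.110), with a median of 0.363, and closest to Ikzf3 were Gnb4 (0.0978), Cdc42se1 (0.118) and Enpp1 (0.119), with a median of 0.368. For the Runx factors the distances were small for most genes. Closest to Runx1 were Btg1 (0.0929), Pip4k2a (0.0938) and Ubn1 (0.0949), with a median of 0.279, and closest to Runx3 were Pepd (0.050), Pea15a (0.0763) and Lims1 (0.0840), with a median of 0.282.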

How the data were processed

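The measurements were read counts per gene in 12 RNA-seq libraries. Per the labels' protocols, RNA of sorted cells was turned into cDNA with SMART-Seq v4, and 2 different kits are named for making the libraries. The authors deposited raw counts of reads per gene, not normalized. STAR 2.5.1b aligned the reads to mm10 (GRCm38) and HTSeq counted them, per the submitters' processing notes. Its version, its strand setting and the release of the annotation are not given in these sources. A read that falls on exons of more than 1 gene may be left out of both genes, which can lower Ikzf5 and Foxp3. The HTSeq summary counts were kept out of library sizes and tests.

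After filterByExpr and TMM scaling, edgeR 4.0.16 (R 4.3.3) was used for a robust quasi-likelihood fit of all 12 libraries without covariates, with a call at a Benjamini-Hochberg adjusted p under 0.05. CPM use TMM-scaled library sizes, and log2 CPM a prior count of 2. Levels per kb use GENCODE M21 exonic lengths (97.5% of genes matched). The fit was tested on simulated counts with known changes. The biological coefficient of variation was 17.4%. Libraries of a group differed by more than sampling noise (lowest chi-square per gene 7.06), so none was a copy. Named genes were the 10 members, up to 3 called genes with the smallest adjusted p per list and comparison, and the 3 genes most like each called member. Some genes are not reported here. The members and lists were chosen with earlier results of these data known. Alternatives were DESeq2 1.42.0, limma-voom 3.58.1, other scalings and filters, a fit of only the groups compared, a replicate block, removal of length and GC trends (mgcv 1.9.3) and leaving out libraries. The recount of lists, and the values per kb of unshared exonic length, were added after seeing the data.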

Additional observations from a re-analysis of the deposited data

Results flagged for a closer look

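In each group of 4 libraries, a library was singled out where its gap to the nearest other exceeded 0.829 of the group's range. This happens by chance in about 1 in 20 groups, and it happened in 10 of 174 groups tested. Among members, Ikzf5 was at 2.63 CPM in Foxp3-deficient 4, beside 1.35 to 1.56 CPM in the others. Runx2 was at 10.7 CPM in WT 5, beside 8.34 to 8.40 CPM, and at 12.5 CPM in Foxp3-deficient 5, beside 6.92 to 7.63 CPM. Neither gene passed in any comparison. Among other named genes, Chd3 was at 152 CPM in double-deficient 2 (others 124 to 128), Hdac2 at 219 CPM in double-deficient 5 (others 201 to 204) and Cd8b1 at 21.1 CPM in WT 1 (others 17.1 to 17.6). Tnfrsf9 was at 70.2 CPM (others 95 to 98) and Abcg1 at 19 CPM (others 33.5 to 34.7) in Foxp3-deficient 3, which also stood apart in the principal component analysis. Gnb4 was at 22.5 CPM (others 25.4 to 25.7) and Pea15a at 119 CPM (others 128 to 129) in double-deficient 5.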

How the results depend on the processing

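Foxp3, Ikzf1, Ikzf2, Ikzf3 and Ikzf4 against WT, in both comparisons, and Ikzf3 in double-deficient against Foxp3-deficient cells kept direction and call under all 23 alternatives. Over all members, 628 of the recomputed values kept both, 27 lost a call, 12 gained one and 20 changed sign, none of the last called. Same-numbered WT and Foxp3-deficient libraries correlated at 0.157, 0.102, 0.0289 and 0.203, not all over 0.1, and WT 4 correlated best with Foxp3-deficient 1 (0.188). Different-numbered libraries of these groups correlated at -0.261 to 0.188. The reported fit did not pair samples by number, and these correlations do not settle whether numbers mark pairs, since the labels do not say which mice gave the samples. With the replicate number as a block, Runx3 in Foxp3-deficient against WT cells was 0.33 (adjusted p = 0.0595), the genes called numbered 1783 instead of 1812, and Runx1 in double-deficient against WT cells was -0.042. In double-deficient against Foxp3-deficient cells (3 members called, 2 of them lower; 3585 genes), 1 was called and 0 lower with no filter or with the length and GC trend removed, alone or with the block, and 1 was lower in a fit of only these groups, which called 2382 genes (1205 higher). The trend removed with the block called 2019 genes (1136 higher, 883 lower), and 1361 lower (2215 as reported) in double-deficient against WT cells, where the trend alone gave 4 members higher. Signs also changed, with the range on leaving out 1 library in brackets, for Runx3 in double-deficient against Foxp3-deficient cells (0.014 with the trend removed) [-0.16 to 0.019], Cbfb there (-0.074 with the trend removed, -0.12 with the block too, -0.13 without Foxp3-deficient 1 and 3) [-0.021 to 0.21], Ikzf5 there (-0.074 with trend and block, -0.14 without 1 and 3) and Runx2 there (-0.073 without 1 and 3). They changed for Ikzf5 [-0.15 to 0.067] and Runx1 [-0.015 to 0.10] in double-deficient against WT cells, and for Ikzf5 (0.11 without 1 and 3) and Runx2 (0.12 without 1 and 3) [-0.30 to 0.045] in Foxp3-deficient against WT cells. Leaving out 1 library gave 5 to 7 members called in Foxp3-deficient against WT cells (2 to 4 higher), 1 to 5 in double-deficient against Foxp3-deficient cells (0 to 4 lower) and 5 to 6 in double-deficient against WT cells (2 to 3 higher). All genes called ranged from 1332 to 1949 (682 to 1035 higher, 650 to 924 lower), from 2153 to 4430 (1114 to 2283 higher, 1039 to 2147 lower) and from 3089 to 5147 (1475 to 2610 higher, 1614 to 2537 lower). The lowest counts of double-deficient against Foxp3-deficient cells came without double-deficient 5. The causes were not tested. Ikzf5 had at most 51 reads in a library, which limits its precision.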
